A study of Mus musculus with 27 samples.

Results

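The late phase of acute liver injury in the mouse was followed in hepatic stellate cells (HSCs) isolated 72 h and 7 d after a single injection of carbon tetrachloride (CCl4). The data described here are the 8 RNA sequencing libraries of these groups, 4 from 72 h and 4 from 7 d, out of 27 libraries in the series, and all genes of the deposited table were compared between them. The members were the columns that the labels assign to these time points, and no measured value was used to choose them. The study as a whole asked how gene expression in HSCs moves through acute injury, fibrosis and fibrosis reversal. The step from 72 h to 7 d covers the late phase after a single injection.

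All mice were male Balb/c. Mice of both acute groups were 10-12 weeks old and received CCl4, which damages hepatocytes, once by the intraperitoneal route in mineral oil at 0.5 µL per gram of body weight. The 4 healthy mice used as a reference were 10-12 weeks old and untreated, so no group received mineral oil alone. The 3 libraries of acute 24 h came from the same single injection. In the chronic groups, mice aged 8-10 weeks were injected on a semi-weekly basis for 4 weeks, and the libraries of 24 h and 72 h after the last injection, 4 each, are used below for comparison. HSCs were released by perfusion of the liver, sorted by the ultraviolet fluorescence of their vitamin A and lysed without culture. Nothing in the labels says whether a library came from 1 animal or from pooled animals, so the p-values below measure the spread between libraries.

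HSCs store vitamin A as retinyl esters in the space between hepatocytes and the sinusoidal endothelium. After injury they lose part of this phenotype and become myofibroblast-like, with new contractile fibres, cell division, secretion of cytokines and deposition of fibrillar collagen. When injury ends, they can return to a state that resembles quiescence, while macrophages clear debris and help to break down matrix.

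Total counts ranged from 11150326 to 12553594 in the libraries of 72 h and from 11646616 to 13052838 in those of 7 d. Levels are given as CPM, the counts of a gene relative to the scaled total of its library. A value after ± is the SD over the 4 libraries of a group, and means without ± are given without their spread. Within the groups, the 12 pairs of libraries had correlations across genes of 0.914 to 0.951 on the log2 CPM scale, and all pairs differed by more than counting error. On the first principal component, which held 31.9% of the variance of the 500 most variable genes, the libraries of 72 h lay between -41.9 and -19.3 and those of 7 d between 22.3 and 32.4. The second component (17.3%) separated replicates 1 and 2 of 72 h, at 24.3 and 37.3, from replicates 3 and 4, at -38.8 and -8.88.

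The sorted cells carried HSC markers at both times. Lrat, which esterifies retinol, measured 1747, 2159, 1785 and 1497 CPM at 72 h and 1371, 1803, 683 and 1411 CPM at 7 d, and Reln, which encodes the secreted glycoprotein reelin, measured 1194, 1209, 871 and 820.3 CPM at 72 h and 1121, 1356, 1169.6 and 1267 CPM at 7 d. The libraries of both times overlapped for each gene. Of 10 HSC markers, 0 were called by edgeR in either direction (as defined below), 3 had an unadjusted p below 0.05 and 0 were called by DESeq2, and their summed level was 15298-19155 CPM at 72 h and 18007-20737 CPM at 7 d. In healthy libraries that sum was 25969-46036 CPM.

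A gene was called when its adjusted p (edgeR quasi-likelihood test, Benjamini-Hochberg adjustment over 18758 genes tested) was below 0.05 and its level changed more than 2-fold. At 7 d, 952 genes were higher (5.08% of those tested) and 512 were lower (2.73%). The higher genes made up 65.0% of those called. By list, 27 of 49 genes of mitosis, 17 of 35 of DNA replication and 11 of 26 of the contractile cytoskeleton fell. In the other direction, 10 of 10 markers of macrophages, 8 of 20 genes of lysosomes and cathepsins, 4 of 16 fibrillar collagens and 4 of 18 matrix metalloproteinases and their inhibitors rose. Of the called genes, 872 of those higher and 406 of those lower had no overlap between the libraries of both times, compared with 2025 (10.8%) and 1926 (10.3%) of all genes tested. By size, 557 called genes were at least 4-fold higher and 165 at least 4-fold lower. The median log2 fold change over all genes tested was -0.0382, against which the lists below can be read. Among the called genes, 76 of those higher had 3 counts or fewer in every library of 72 h and 30 of those lower had 3 counts or fewer in every library of 7 d, so that their fitted fold changes depend on the small count added in the fit.

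**Figure D1:**
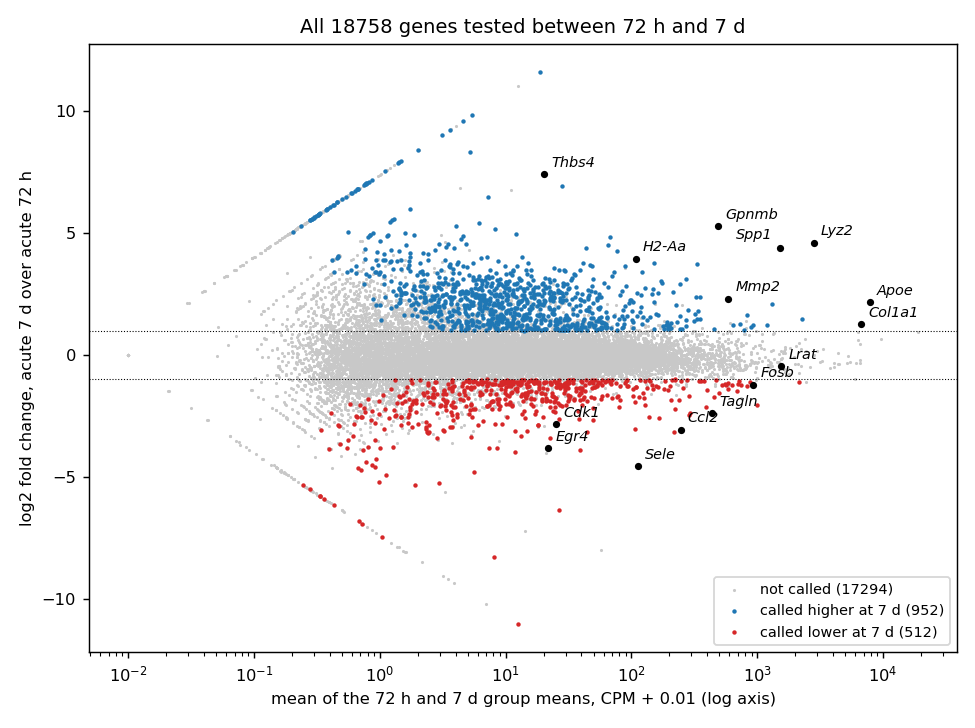
Log2 fold change of acute 7 d over acute 72 h (vertical axis) against the mean level of both groups in CPM (horizontal log axis) for the 18758 genes tested, with the 952 genes called higher in blue and the 512 called lower in red, and genes named in the text labelled. Dotted lines mark 2-fold changes, and the straight streaks at low levels are genes without counts in all libraries of a group.

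Of the 21 lists of gene function, mitosis and cytokinesis had the most called members. Of 49 genes tested, 27 fell and 0 rose, and all 49 had a negative log2 fold change, with a median of -1.76. In 33 of them every library of 72 h lay above every library of 7 d. Their summed level was 1337-2628 CPM at 72 h and 249-875 CPM at 7 d, next to 203-259 CPM in healthy libraries and 89.1-157 CPM at 24 h.

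Cdk1, the kinase that drives entry into mitosis, measured 38.7, 44.2, 42.0 and 52.8 CPM at 72 h and 4.85, 8.78, 3.62 and 7.51 CPM at 7 d. The lowest library of 72 h was far above the highest of 7 d, and the mean of 7 d, 6.19 ± 2.37 CPM, was close to that of healthy libraries, 4.95 ± 1.54 CPM. The gene fell by 2.84 on the log2 scale (SE 0.31, edgeR adjusted p = 5.52e-06). Kif20a, a kinesin of the cleavage furrow, measured 21.9, 13.7, 18.7 and 9.99 CPM at 72 h and 0.0, 0.0, 3.7 and 0.843 CPM at 7 d. These groups did not overlap either, although a single library set the level at 7 d, where the mean of 1.14 CPM became 0.281 CPM without replicate 3. The change of Kif20a was -3.81 (SE 1.19, edgeR adjusted p = 0.039), and its call was lost (edgeR adjusted p = 0.0616 to 0.0973) when replicate 1, 2 or 3 of 72 h or replicate 1, 2 or 4 of 7 d was left out. Mki67, the gene of the proliferation antigen Ki-67, measured 159, 129, 178 and 206 CPM at 72 h and 67.5, 59.5, 37.7 and 13.9 CPM at 7 d. It fell by 1.91 (SE 0.58, edgeR adjusted p = 0.0325) without overlap of the libraries, and it was not called without replicate 1, 3 or 4 of 72 h or replicate 3 or 4 of 7 d, at edgeR adjusted p = 0.053 to 0.096. Further members that fell were Top2a, which untangles replicated DNA (41.4 to 8.24 CPM, log2 -2.33), Prc1, which bundles the central spindle (81.4 to 17.9 CPM, log2 -2.18), and Anln, the anillin of the contractile ring (178 to 53.6 CPM, log2 -1.73). Plk1 and Ccnb1, which also act in mitosis, changed by -1.69 and -1.68 but did not pass the threshold (edgeR adjusted p = 0.164 and 0.0758). The number of members called fell from 27 to 14 without replicate 3 of 72 h or replicate 4 of 7 d, and to 17 without replicate 4 of 72 h or replicate 3 of 7 d.

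The promoters of the mitotic genes were read as a feature that the comparison did not use. Promoters of mitotic genes are known for the cell cycle homology region, which reads TTTGAA in its common form, and for CCAAT boxes bound by NF-Y. The windows of 4 of the called members with the largest falls are shown, since this list had more called members than any other of the 21 lists of gene function. Each is 300 bases long, from 250 bases before to 50 bases after the gene start, taken from RefSeq on GRCm38.p6 and written 5′ to 3′ on the strand of the gene, with TTTGAA and CCAAT in capitals on either strand, so that TTCAAA and ATTGG are their reverse complements. Cdk1 covers chr10:69352863-69353162 on the minus strand, Top2a chr11:99024140-99024439 on the minus strand, Cenpe chr3:135212313-135212612 on the plus strand and Prc1 chr7:80294201-80294500 on the plus strand. For Prc1 the first of 2 listed starts was used.
Cdk1: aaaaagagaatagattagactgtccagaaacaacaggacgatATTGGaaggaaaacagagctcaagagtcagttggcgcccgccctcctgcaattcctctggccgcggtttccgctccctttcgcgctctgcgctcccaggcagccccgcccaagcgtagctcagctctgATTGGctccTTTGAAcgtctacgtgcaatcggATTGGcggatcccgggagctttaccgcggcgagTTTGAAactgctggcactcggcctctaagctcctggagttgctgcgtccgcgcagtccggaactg
Top2a: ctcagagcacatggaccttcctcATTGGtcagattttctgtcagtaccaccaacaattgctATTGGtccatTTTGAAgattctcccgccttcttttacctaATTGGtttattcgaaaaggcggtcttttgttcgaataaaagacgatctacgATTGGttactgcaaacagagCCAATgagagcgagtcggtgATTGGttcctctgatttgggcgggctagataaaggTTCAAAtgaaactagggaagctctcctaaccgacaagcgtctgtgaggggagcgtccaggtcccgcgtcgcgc
Cenpe: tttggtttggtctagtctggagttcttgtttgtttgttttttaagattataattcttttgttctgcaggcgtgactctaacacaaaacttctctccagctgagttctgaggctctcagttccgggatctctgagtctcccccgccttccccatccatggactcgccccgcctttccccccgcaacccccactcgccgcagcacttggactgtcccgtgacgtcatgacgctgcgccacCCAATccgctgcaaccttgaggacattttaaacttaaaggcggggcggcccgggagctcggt
Prc1: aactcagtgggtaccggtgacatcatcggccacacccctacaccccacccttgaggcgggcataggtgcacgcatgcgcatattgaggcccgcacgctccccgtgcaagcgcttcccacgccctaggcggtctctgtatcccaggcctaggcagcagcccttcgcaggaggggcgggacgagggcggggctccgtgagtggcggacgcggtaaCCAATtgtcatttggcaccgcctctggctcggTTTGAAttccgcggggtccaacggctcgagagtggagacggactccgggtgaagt

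Cdk1 held 2 copies of TTTGAA and 3 of CCAAT, Top2a 2 and 6, Prc1 1 and 1, and Cenpe, which encodes a kinetochore motor, 0 and 1. Of 41 mitotic genes with an entry in the promoter table, 29 (70.7%) held TTTGAA, compared with 18.1% of all 27025 promoters, and 30 (73.2%) held CCAAT, compared with 37.9%. Both were present in 25 of 41 (61.0%) and in 7.12% of all promoters. Within the list, TTTGAA was found in 17 of 21 members called lower (81.0%) and in 12 of 20 not called (60.0%). In the DNA replication list, whose members also fell, TTTGAA was found in 4 of 30 promoters (13.3%) and CCAAT in 18 (60.0%). These are matches of letters in a fixed window and were not tested as binding sites.

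DNA replication genes fell in part. Of 35 tested, 17 fell and 0 rose, all 35 had a negative log2 fold change (median -1.32), and 29 had libraries apart. Tk1, which salvages thymidine for DNA synthesis, measured 58.3, 55.5, 60.3 and 75.5 CPM at 72 h and 18.5, 13.2, 12.9 and 5.75 CPM at 7 d. The groups were apart, with a fall of 2.31 on the log2 scale (SE 0.37, edgeR adjusted p = 0.000271), and the mean at 7 d (12.6 ± 5.24 CPM) stayed above that of healthy libraries (5.5 ± 1.24 CPM), a difference that was called. Clspn, which encodes the checkpoint mediator claspin, measured 8.15, 9.35, 10.4 and 9.06 CPM at 72 h and 2.43, 1.8, 1.61 and 0.536 CPM at 7 d. It fell by 2.53 (edgeR adjusted p = 0.0303), a call that was lost at edgeR adjusted p = 0.05 to 0.0912 without replicate 2, 3 or 4 of either group. The subunits of the replicative helicase Mcm2, Mcm3, Mcm4, Mcm5, Mcm6 and Mcm7 all fell, by 1.09 (Mcm4) to 2.29 (Mcm5) on the log2 scale. Without replicate 4 of 72 h, 11 in place of 17 members were called.

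**Figure D2:**
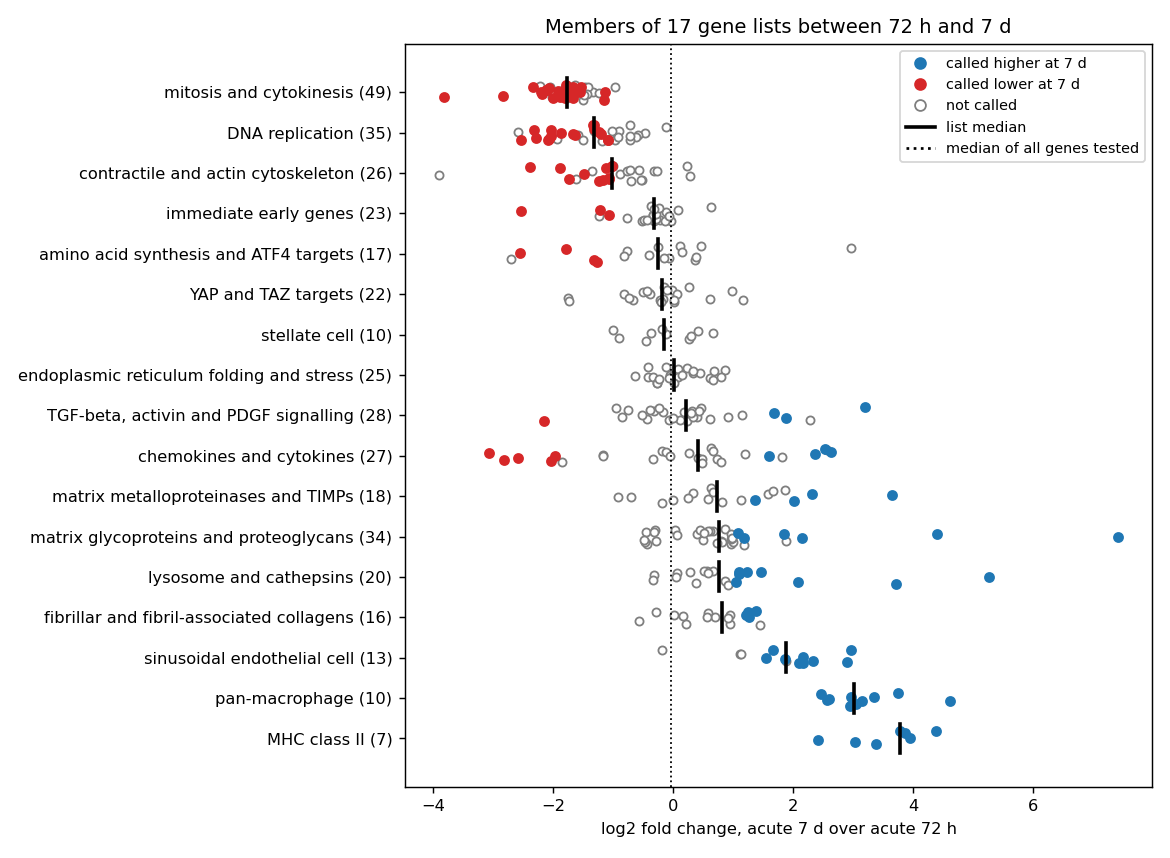
Log2 fold change of acute 7 d over acute 72 h for each tested member of 17 gene lists, with the number of members in brackets; blue and red points are called members, open points are members not called, black bars are list medians and the dotted line is the median of all genes tested (-0.0382). Members of the mitosis and DNA replication lists lie below 0 without exception, and those of the pan-macrophage and MHC class II lists lie above 2.

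Genes of the contractile cytoskeleton fell in part. Of 26 genes, 11 fell and 0 rose, with a median log2 fold change of -1.01, and 19 had libraries apart and lower at 7 d. Tagln, which encodes the actin-binding protein transgelin, measured 685, 1394, 466 and 387 CPM at 72 h and 141 ± 32.5 CPM (SD, n = 4) at 7 d, next to the level of healthy libraries (139 ± 47.4 CPM). It fell by 2.38 on the log2 scale (SE 0.48, edgeR adjusted p = 0.0021) without overlap. Tpm2, a tropomyosin, measured 32.2, 57.4, 52.7 and 55.0 CPM at 72 h and 16.3, 14.4, 12.6 and 10.2 CPM at 7 d. All libraries of 7 d were lower, and the gene fell by 1.88 (SE 0.46, edgeR adjusted p = 0.00843). Acta2, which encodes α-smooth muscle actin, the marker of the activated HSC, measured 212, 621, 256 and 275 CPM at 72 h and 69.8, 151, 141 and 81.4 CPM at 7 d. Its libraries did not overlap, but replicate 2 of 72 h stood far above the others and the change of -1.62 (SE 0.69) was not called (edgeR adjusted p = 0.13). In a fit of the 8 libraries alone it was called, at -1.61 and edgeR adjusted p = 0.0338. At 7 d Acta2 was still higher than in healthy libraries, whose mean was 3.13 ± 2.69 CPM (log2 5.13, edgeR adjusted p = 9.31e-05). The number of contractile members called was 4 without replicate 2 of 72 h and 6 without replicate 4 of 7 d.

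The 8 genes with the largest falls, taken from called genes with mean log2 CPM at or above 3 and libraries apart, included endothelial, immediate early and striated muscle genes. Sele, which encodes the adhesion molecule E-selectin (chr1:164048234-164057677, GENCODE on GRCm38), measured 203, 300.1, 189.9 and 172 CPM at 72 h and 4.53, 5.91, 10.7 and 15.2 CPM at 7 d. The mean in healthy libraries was 5.29 ± 1.23 CPM, and Sele fell by 4.57 on the log2 scale between 72 h and 7 d (SE 0.44, edgeR adjusted p = 2.96e-06). Egr4, a zinc-finger transcription factor of the early growth response family (chr6:85511121-85513589), measured 38.3, 45.7, 36.0 and 43.4 CPM at 72 h and 3.23, 2.87, 2.98 and 2.53 CPM at 7 d. It fell by 3.81 (SE 0.42, edgeR adjusted p = 5.52e-06) to the level of healthy libraries, 2.53 ± 1.43 CPM. In both genes the groups were far apart.

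Casq2, the calcium-binding calsequestrin of cardiac muscle, measured 30.3, 44.3, 37.9 and 51.2 CPM at 72 h and 1.54, 1.56, 4.51 and 7.74 CPM at 7 d (log2 -3.41, edgeR adjusted p = 0.000221). Tnnt2, cardiac troponin T, measured 15.3, 20.1, 33.7 and 35.9 CPM at 72 h and 1.54, 2.79, 4.67 and 3.07 CPM at 7 d (log2 -3.12, edgeR adjusted p = 0.000242). Rnd1, a small GTPase that acts on the actin cytoskeleton, measured 68.1, 99.7, 91.9 and 82.7 CPM at 72 h and 7.12, 8.94, 11.2 and 27.4 CPM at 7 d (log2 -2.65, edgeR adjusted p = 9.5e-05). No library of 7 d reached the range of 72 h for any of them. Without replicate 4 of 7 d, the mean at 7 d moved from 3.84 to 2.53 CPM for Casq2 and from 13.7 to 9.08 CPM for Rnd1. Rpl32, a ribosomal protein gene with many near-identical copies in the genome, also lay among the 8 (49.1, 60.5, 65.1 and 118 CPM against 5.74, 5.09, 4.75 and 4.21 CPM, log2 -3.88). Its locus also overlaps Cand2 and Snora7a, so its values are uncertain.

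Markers of other liver cells rose in the same libraries. Of 10 pan-macrophage markers, all 10 rose, with a median log2 fold change of 3.01, and their summed level was 266-486 CPM at 72 h and 3984-10127 CPM at 7 d, against 78.3-252 CPM in healthy libraries. Most of that sum was Lyz2, lysozyme of myeloid cells, at 193, 185, 171 and 335 CPM at 72 h and 3467, 5048, 8584 and 4523 CPM at 7 d. The groups were far apart, and Lyz2 rose by 4.61 on the log2 scale (SE 0.57, edgeR adjusted p = 1.82e-05). Csf1r, the receptor that macrophages depend on, rose from 39.5 to 309.7 CPM (log2 2.97), and Ptprc, the pan-leukocyte antigen CD45, from 7.78 to 46.3 CPM (log2 2.57). Lyz1 measured 4.25, 3.55, 3.9 and 9.91 CPM at 72 h and 78.7, 114, 193 and 115 CPM at 7 d (log2 4.53, edgeR adjusted p = 3.11e-06), and because it is a close relative of Lyz2 some reads may be shared.

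The 7 genes of MHC class II presentation all rose, with a median of 3.78 and a summed level of 53-62.4 CPM at 72 h and 486-1112 CPM at 7 d. H2-Aa, an MHC class II chain, measured 12.6, 10.1, 14.1 and 15.7 CPM at 72 h and 136, 188, 213 and 277 CPM at 7 d. It rose by 3.95 (SE 0.54, edgeR adjusted p = 5.79e-05) with the groups apart. Cd74, the invariant chain, measured 2.21, 6.15, 0.0 and 7.51 CPM at 72 h and 33.2, 40.9, 78.2 and 181 CPM at 7 d. Its groups did not overlap either (log2 4.38, SE 1.32, edgeR adjusted p = 0.0337), but the mean of 7 d, 83.2 CPM, was 50.7 CPM without replicate 4, and the call was lost at edgeR adjusted p = 0.0502 to 0.0912 without any replicate of 72 h, without replicate 3 or 4 of 7 d or without the filter on low counts. Clec7a, the β-glucan receptor dectin-1, measured 9.48, 8.23, 6.18 and 6.43 CPM at 72 h and 74.9, 122, 223 and 160.2 CPM at 7 d (log2 4.26, edgeR adjusted p = 0.000469), with no overlap.

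In the remaining lists of cell types, 9 of 13 markers of sinusoidal endothelial cells rose (median 1.88, 76.4-237 CPM in sum at 72 h and 312-918 CPM at 7 d), as did 3 of 6 tested markers of Kupffer cells (54.4-277 and 318-1381 CPM), 4 of 7 of monocyte-derived macrophages (258-280.2 and 370.1-511 CPM), 4 of 7 of dendritic cells (51.8-54.3 and 80.3-129 CPM), 4 of 6 of neutrophils (6.75-10.4 and 31.2-53.9 CPM), 3 of 9 of T and NK cells (5.19-9.03 and 15.3-30.1 CPM), 3 of 7 of B and plasma cells (4.61-8.75 and 22.1-54.4 CPM) and 4 of 11 of mesothelial cells and portal fibroblasts (165-276 and 414-456 CPM). In healthy libraries the endothelial sum was 246-758 CPM and the Kupffer sum 99.9-399 CPM. Of cholangiocyte markers 1 of 7 was called higher, and all 7 had a positive log2 fold change (median 1.25, 8.75-25.4 and 18.1-51.8 CPM). Of 6 vascular smooth muscle markers edgeR called 0 (1 at an unadjusted p below 0.05 and 1, Myh11, called by DESeq2). Of 5 erythroid markers it called 0 (0 at an unadjusted p below 0.05 and 0 by DESeq2). Folr2, a Kupffer marker, and Camp, a neutrophil marker, had no count in any of the 8 libraries. The Kupffer count was 0 without replicate 3 or 4 of 72 h or replicate 4 of 7 d and 5 without replicate 2 of 72 h, the B and plasma count 0 or 1 without replicate 1 or 2 of 72 h or replicate 1 or 4 of 7 d, the T and NK count 1 without any library other than replicate 3 of 7 d, and the dendritic count 2 without replicate 3 or 4 of 72 h or replicate 2 or 4 of 7 d.

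Among the hepatocyte markers, 18 of 19 had a positive log2 fold change (median 0.73), with a summed level of 1701-4128 CPM at 72 h and 3188-5446 CPM at 7 d. Of the 19, 1 was called higher. This was Cyp2e1, which converts CCl4 to its toxic radical, at 2.48, 1.9, 8.21 and 5.81 CPM at 72 h and 77.6, 63.7, 210.3 and 172 CPM at 7 d. The groups were apart, with a rise of 4.82 (SE 0.76, edgeR adjusted p = 0.000239), whereas Alb (442 to 657 CPM) changed by 0.57 and was not called. The share of macrophage or other cells among those sorted was not measured, and in bulk RNA more cells of a type and more RNA per cell cannot be told apart. Of the 952 genes that rose (5.08% of those tested), 53 were on a list of another cell type. These lists are short, the longest at 19 genes tested, so this count does not measure how many rises came from other cells. What part the other cells had in the rises described below was not tested.

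**Figure D3:**
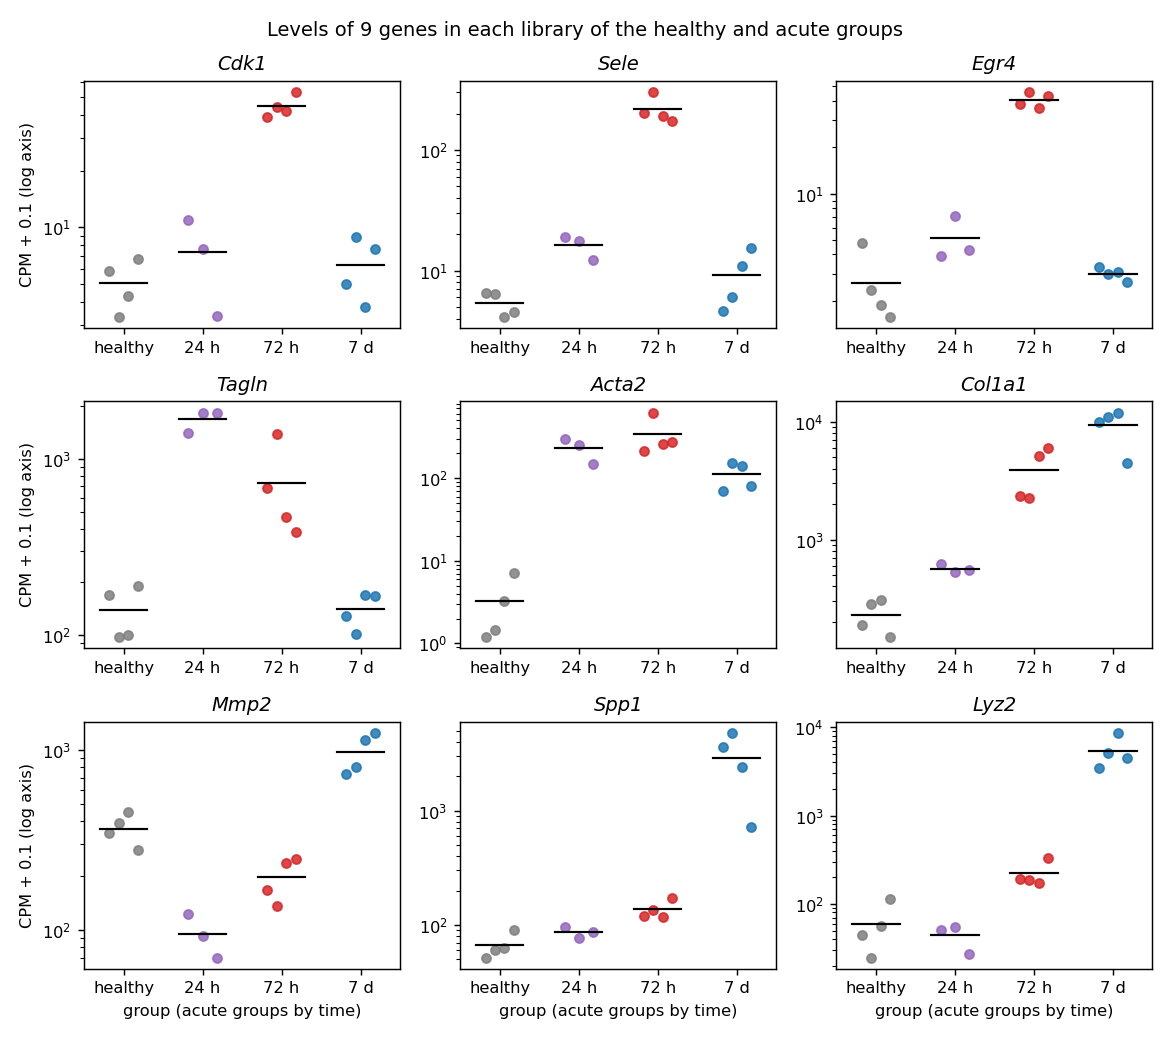
Levels in CPM + 0.1 (log axis) of 9 genes in each library of the healthy, acute 24 h, acute 72 h and acute 7 d groups; points are libraries and bars are group means. The libraries of 72 h lie above all others for Cdk1, Sele and Egr4, and those of 7 d lie above all others for Mmp2, Spp1 and Lyz2, whereas 72 h and 7 d overlap for Col1a1.

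Lysosomal genes and cathepsins rose in part. Of 20 genes, 8 rose and 0 fell (median 0.76). Gpnmb, a membrane glycoprotein of lysosome-rich cells (chr6:49036546-49070929), measured 13.9, 15.9, 12.4 and 56.2 CPM at 72 h and 423, 1161, 1728 and 494 CPM at 7 d. It rose by 5.27 on the log2 scale (SE 0.87, edgeR adjusted p = 0.00035) without overlap, and the mean of 72 h moved from 24.6 to 14.1 CPM without replicate 4. Ctss, which encodes cathepsin S of antigen-presenting cells, measured 57.0, 48.1, 28.9 and 51.3 CPM at 72 h and 373, 512, 992 and 568 CPM at 7 d (log2 3.72, SE 0.52, edgeR adjusted p = 7.05e-05), also apart. Cathepsins with a wider distribution rose as well, Ctsd from 497 to 2104 CPM (log2 2.08) and Ctsb from 1202 to 3341 CPM (log2 1.47), whereas the membrane proteins Lamp1 (0.06) and Lamp2 (0.39) were not called. Without replicate 3 of 7 d, 4 in place of 8 members were called.

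A minority of the fibrillar collagens passed the threshold. Of 16 tested genes, 4 rose and 0 fell, and 14 had a positive log2 fold change (median 0.81), while Col2a1 had no count. Their summed level was 16486-34856 CPM at 72 h and 34079-56609 CPM at 7 d, next to 5881-7923 CPM in healthy libraries. Col1a1, the α1 chain of type I collagen, measured 2346, 2264, 5094 and 5951 CPM at 72 h and 10033, 10949, 11989 and 4454 CPM at 7 d. Replicate 4 of 7 d lay within the range of 72 h, and replicates 1 and 2 of 72 h lay below replicates 3 and 4. The gene rose by 1.26 (SE 0.34, edgeR adjusted p = 0.0175), a call that was lost without replicate 1 or 2 of 72 h or replicate 3 of 7 d, at edgeR adjusted p = 0.0548 to 0.0692, and in a fit of the 8 libraries alone (0.0676). Col3a1, the chain of type III collagen, measured 8668, 7283, 18779 and 17039 CPM at 72 h and 26672, 27787, 26039 and 19205 CPM at 7 d. Its groups did not overlap, and its change of 0.95 (SE 0.25, edgeR adjusted p = 0.0137) stayed under the 2-fold minimum, which it exceeded without replicate 3 or 4 of 72 h or replicate 4 of 7 d (1.05 to 1.21). Col5a3, a minor fibrillar chain, measured 19.6, 10.7, 15.0 and 13.3 CPM at 72 h and 48.8, 53.6, 40.4 and 10.2 CPM at 7 d. It rose by 1.39 (SE 0.36, edgeR adjusted p = 0.013) with replicate 4 of 7 d in the range of 72 h, and its call was lost without replicate 2 of 72 h (edgeR adjusted p = 0.051) and in the fit of the 8 libraries alone (0.0749). The chains Col6a1 (714 to 1656 CPM, log2 1.21) and Col6a2 (550.3 to 1305 CPM, log2 1.25) of the microfibrillar type VI collagen were the other members called. Without replicate 2 of 72 h, 2 in place of 4 members were called.

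The enzymes that process collagen did not follow as a group. Of 28 genes, 2 rose and 1 fell, with a median of -0.05. Bmp1, the protease that removes the C-propeptides of procollagen, measured 100.1, 98.8, 112 and 125 CPM at 72 h and 298, 277, 230.2 and 182 CPM at 7 d, apart in all libraries (log2 1.18, SE 0.15, edgeR adjusted p = 2.13e-05). Pcolce2, an enhancer of that protease, was low and measured 2.39, 1.56, 1.06 and 2.17 CPM at 72 h and 6.55, 5.5, 2.74 and 6.74 CPM at 7 d (log2 1.58, edgeR adjusted p = 0.0111). Adamts14, which removes N-propeptides, measured 79.0, 80.4, 70.9 and 79.4 CPM at 72 h and 25.6, 30.7, 40.7 and 43.5 CPM at 7 d. It fell by 1.14 (SE 0.19, edgeR adjusted p = 0.000375) without overlap, and by 0.99 without replicate 1 of 7 d, under the 2-fold minimum. Lox, the cross-linking lysyl oxidase, measured 200.4, 227, 574 and 517 CPM at 72 h and 482, 445, 376 and 216 CPM at 7 d. Its groups overlapped widely and its log2 fold change was 0.0 (SE 0.42), at a level far above healthy libraries (7.41 ± 2.08 CPM).

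Basement membrane genes went both ways, with 3 of 23 higher and 2 lower. Col15a1, a multiplexin collagen at the outer face of basement membranes, measured 7.0, 3.55, 7.4 and 8.67 CPM at 72 h and 78.6, 71.8, 76.9 and 30.2 CPM at 7 d. Even the lowest library of 7 d, replicate 4, exceeded all of 72 h, and the rise was 3.27 (SE 0.37, edgeR adjusted p = 7.61e-06). Col8a1, a short-chain collagen of vessel walls, measured 411, 311, 605 and 630.5 CPM at 72 h and 81.8, 116, 88.8 and 86.6 CPM at 7 d. It fell by 2.39 (SE 0.28, edgeR adjusted p = 1.25e-05) to near the healthy level (65.1 ± 19.1 CPM). Lama5, the laminin α5 chain, measured 33.8, 28.7, 33.2 and 27.5 CPM at 72 h and 12.1, 12.1, 8.69 and 7.89 CPM at 7 d (log2 -1.59, edgeR adjusted p = 0.00402), whereas Lamb3, the laminin β3 chain, rose from 3.04 ± 0.673 to 6.95 ± 1.12 CPM (log2 1.19, edgeR adjusted p = 0.00105). Neither overlapped between the times.

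Of 18 matrix metalloproteinases and their inhibitors tested, 4 rose and 0 fell (median 0.74). Mmp2, gelatinase A (chr8:92827291-92853420), measured 166, 136, 235 and 248 CPM at 72 h and 729.8, 797, 1136 and 1237 CPM at 7 d. It rose by 2.31 (SE 0.23, edgeR adjusted p = 3.11e-06) without overlap and passed the healthy level of 365 ± 73.4 CPM. Mmp12, the elastase of macrophages, measured 9.12, 7.1, 4.88 and 7.59 CPM at 72 h and 28.1, 81.0, 179 and 70.1 CPM at 7 d (log2 3.64, SE 0.70, edgeR adjusted p = 0.00147), with the groups apart. The collagenase Mmp13 (2.47 to 10.0 CPM, log2 2.02) and Mmp19 (15.0 to 38.8 CPM, log2 1.37) also rose. Timp1, an inhibitor of these enzymes, measured 1.68, 47.9, 21.2 and 29.3 CPM at 72 h and 86.8, 54.0, 22.7 and 12.0 CPM at 7 d. The spread within the groups exceeded the difference between them (log2 0.81, SE 0.78, edgeR adjusted p = 0.542).

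Among matrix glycoproteins and proteoglycans, 6 of 34 tested rose and 0 fell (median 0.76), and 16 had libraries apart and higher. Spp1, the secreted phosphoprotein osteopontin, measured 121, 136, 117 and 173 CPM at 72 h and 3606, 4775, 2425 and 717 CPM at 7 d. Replicate 4 of 7 d was the lowest of its group and still far above 72 h, and Spp1 rose by 4.40 (SE 0.47, edgeR adjusted p = 3.6e-06). Thbs4, thrombospondin 4, measured 0.0, 0.0, 0.0 and 0.852 CPM at 72 h and 45.9, 59.0, 41.2 and 14.6 CPM at 7 d, and it had no count in any healthy library. With 3 libraries of 72 h at 0 and a mean of 0.213 CPM that became 0.0 without replicate 4, its fitted log2 fold change of 7.42 (SE 1.14, edgeR adjusted p = 0.000683) depends on few counts. Emilin2 (18 to 80.0 CPM, log2 2.15), the collagen-binding Fmod (124 to 444 CPM, log2 1.85) and the injury-induced tenascin Tnc (165 to 375 CPM, log2 1.18) also rose. Vcan, the large proteoglycan versican, was at 22.1, 24.8, 21.8 and 18.5 CPM at 72 h and 44.7, 32.4, 25.2 and 12.8 CPM at 7 d, overlapping and not called (log2 0.40, edgeR adjusted p = 0.464). The abundant Sparc (0.06) and Postn (0.04) changed little and were not called. Without replicate 4 of 72 h, 10 in place of 6 members were called.

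Chemokines and cytokines divided into genes that fell and genes that rose, 5 and 4 of 27 tested. Ccl2, which attracts monocytes, measured 629, 98.8, 484 and 546 CPM at 72 h and 54.3, 37.0, 98.8 and 19.9 CPM at 7 d. The groups met at 98.8 CPM without crossing, and the gene fell by 3.06 (SE 0.82, edgeR adjusted p = 0.0159), a call that was lost without replicate 4 of 7 d (edgeR adjusted p = 0.0542). Lif, a cytokine of the IL-6 family, measured 12.1, 40.9, 4.63 and 7.36 CPM at 72 h and 1.21, 2.13, 1.93 and 3.91 CPM at 7 d. It fell by 2.81 (SE 0.69, edgeR adjusted p = 0.00877), but by 1.80 and without a call (edgeR adjusted p = 0.0746) when replicate 2 of 72 h was left out, which lowered the mean of 72 h from 16.2 to 8.04 CPM. Ccl7 (284 to 47.5 CPM, log2 -2.58), the neutrophil chemokine Cxcl1 (1613 to 394 CPM, log2 -2.04) and Il11 (3.09 to 0.777 CPM, log2 -1.97) fell as well. Ccl6, a chemokine of myeloid cells, measured 24.1, 34.1, 12.8 and 22.4 CPM at 72 h and 94.0, 141, 194 and 148 CPM at 7 d (log2 2.63, SE 0.52, edgeR adjusted p = 0.00183). Il1b, interleukin-1β, measured 34.7, 36.3, 21.5 and 37.5 CPM at 72 h and 102, 103, 203 and 344 CPM at 7 d (log2 2.53, SE 0.55, edgeR adjusted p = 0.00365). Both were apart between the times, and Il1a and Ccl3 were the other members that rose. Without replicate 2 of 72 h, 3 in place of 5 members were called lower.

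In the TGF-β, activin and PDGF list, 3 of 28 genes rose (median 0.21). Pdgfc, a ligand of PDGF receptor α, measured 0.974, 1.73, 0.65 and 0.929 CPM at 72 h and 3.72, 7.63, 15.9 and 12.5 CPM at 7 d (log2 3.20, SE 0.60, edgeR adjusted p = 0.00107). Acvrl1, the endothelial receptor ALK1, measured 5.05, 4.94, 3.01 and 9.45 CPM at 72 h and 14.0, 18.2, 25.3 and 25.6 CPM at 7 d (log2 1.88, edgeR adjusted p = 0.00152). Neither gene overlapped between the times. The ligand Tgfb1 changed by -0.31 (133 to 107 CPM) and the receptor Pdgfrb by 0.30 (837 to 1027 CPM), and neither was called.

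Genes of HSC identity and quiescence showed few calls in this step. Of 26 genes, 1 rose and 0 fell (median -0.14). Their summed level was 17504-20309.7 CPM at 72 h and 19436-23382 CPM at 7 d, below the 39899.7-46426 CPM of healthy libraries. Pparg, a nuclear receptor of the quiescent and lipid-storing state that macrophages also use, measured 1.33, 1.56, 1.3 and 1.78 CPM at 72 h and 5.42, 5.82, 10.5 and 7.05 CPM at 7 d. It rose by 2.26 (SE 0.72, edgeR adjusted p = 0.0409) without overlap, a call lost at edgeR adjusted p = 0.0574 to 0.101 without any replicate of 72 h or without replicate 2, 3 or 4 of 7 d. The rise led away from the healthy level of 0.946 ± 0.692 CPM, above which Pparg was called at 7 d (log2 2.9, edgeR adjusted p = 0.00663). Ngfr, the p75 neurotrophin receptor, measured 102, 106, 42.8 and 44.8 CPM at 72 h and 24.6, 27.7, 79.7 and 71.0 CPM at 7 d. The groups overlapped (log2 -0.54, edgeR adjusted p = 0.397), and at both times Ngfr was lower than in healthy libraries (229.8 ± 35.2 CPM). Lrat did not differ from healthy libraries by more than the threshold at either time, while Reln was lower at both (log2 -1.36 at 72 h and -1.09 at 7 d against healthy). Gfap (15.5 to 17.1 CPM, log2 0.14), an intermediate filament gene of quiescent mouse HSCs, was not called. Of 25 genes of retinoid metabolism, 1 rose, Cyp26a1, which degrades retinoic acid, from 0.354, 0.0, 0.0 and 0.0 CPM at 72 h to 1.78, 2.71, 0.805 and 1.92 CPM at 7 d (edgeR adjusted p = 0.0175). Its mean of 72 h, 0.0886 CPM, came from replicate 1 alone, and without replicate 2 of 72 h its call was lost (edgeR adjusted p = 0.0578). Of 22 targets of YAP and TAZ, edgeR called 0, while 7 had an unadjusted p below 0.05 and DESeq2 called 1, Nuak2. Values were -1.75 for Ccn2 (1141 to 339.8 CPM, edgeR adjusted p = 0.16) and -1.73 for Ankrd1 (6.9 to 2.07 CPM, edgeR adjusted p = 0.0986).

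Several smaller groups had called members. In the list of amino acid synthesis and ATF4 targets, 4 of 17 fell and 0 rose. Psat1, of serine synthesis, measured 28.3, 25.3, 39.4 and 42.6 CPM at 72 h and 7.76, 5.33, 5.8 and 4.21 CPM at 7 d, apart in all libraries (log2 -2.55, SE 0.32, edgeR adjusted p = 1.97e-05). Mthfd2, of mitochondrial folate metabolism, fell from 13.2 ± 2.76 to 3.83 ± 0.633 CPM (log2 -1.79, edgeR adjusted p = 0.00365), and the amino acid transporters Slc7a1 and Slc7a11 fell by 1.31 and 1.27. Of 23 immediate early genes, 3 fell and 0 rose, with a median of -0.32. Fosb measured 1331, 1519, 1163 and 1196 CPM at 72 h and 167, 509.5, 647 and 924 CPM at 7 d (log2 -1.21, edgeR adjusted p = 0.00763), a fall of 0.88 without replicate 1 of 7 d, and it was not called in a fit of the 8 libraries alone (edgeR adjusted p = 0.0991). Fosl1, another partner of AP-1, fell from 7.04 ± 4.75 to 1.21 ± 0.627 CPM (log2 -2.53, edgeR adjusted p = 0.0109), a call lost without replicate 2 of 72 h (edgeR adjusted p = 0.0568). Dissociation of tissue is known to induce such genes, and whether the isolation contributed was not tested. Their count was 1 without replicate 2 of 72 h or replicate 1 of 7 d.

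Of 18 p53 targets and cell cycle inhibitors, 2 rose and 0 fell. Cdkn1c, the inhibitor p57, measured 13.4, 15.7, 17.8 and 21.3 CPM at 72 h and 40.2, 30.7, 66.7 and 50.3 CPM at 7 d (log2 1.46, edgeR adjusted p = 0.00358), which brought it to the healthy level of 38.3 ± 10.4 CPM. Sesn1, a stress-induced inhibitor of mTORC1, measured 25.9, 24.8, 41.4 and 37.2 CPM at 72 h and 77.3, 88.3, 88.5 and 75.5 CPM at 7 d (log2 1.35, SE 0.20, edgeR adjusted p = 0.000117). Neither overlapped. Cdkn1a, the inhibitor p21, measured 35.7, 43.7, 2.76 and 23.7 CPM at 72 h and 11.1, 5.58, 8.13 and 9.5 CPM at 7 d, with replicate 3 of 72 h below all of 7 d, and was not called (log2 -1.62, edgeR adjusted p = 0.135).

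Irf1, a transcription factor induced by interferon, measured 838, 789.8, 756 and 831 CPM at 72 h and 260.1, 201, 375 and 623 CPM at 7 d. It was the single called member of 22 interferon-stimulated genes and fell by 1.14 (SE 0.26, edgeR adjusted p = 0.00536) without overlap, and by 0.98 or 0.94 without replicate 1 or 2 of 7 d. In fatty acid synthesis, 2 of 15 genes rose. Scd1, which desaturates fatty acids, measured 36.7, 27.9, 87.4 and 41.6 CPM at 72 h and 142, 78.7, 199 and 340.4 CPM at 7 d (log2 1.97, edgeR adjusted p = 0.00786), with a single library of each group in the range of the other. Thrsp, a lipogenic regulator, measured 6.73, 5.2, 32.1 and 12.1 CPM at 72 h and 151, 59.0, 24.6 and 78.1 CPM at 7 d. The groups overlapped (log2 2.48, edgeR adjusted p = 0.0379), the mean of 72 h was 14.0 CPM with replicate 3 and 8.0 CPM without it, and the call was lost at edgeR adjusted p = 0.0503 to 0.113 without replicate 1, 2 or 4 of either group. In glycolysis 1 of 20 genes was called higher, next to 5.08% of all genes tested, and 0 lower. This was the glucose transporter Slc2a3, from 2.4 ± 0.744 to 6.14 ± 1.4 CPM (log2 1.35, edgeR adjusted p = 0.0181). Its call was lost without replicate 1 or 2 of 72 h or replicate 3 of 7 d (edgeR adjusted p = 0.0528 to 0.0636). Most of the glycolysis list went the other way, with 14 genes below 0 and 6 above (median -0.297). The summed level of the list was 2726-2989 CPM at 72 h and 1742-2303 CPM at 7 d, next to 1759-2262 CPM in healthy libraries. None of the 25 genes of endoplasmic reticulum folding (median 0.01), the 23 of cholesterol synthesis (median -0.25) or the 18 of the circadian clock (median 0.31) was called by edgeR, with 1, 4 and 4 of them at an unadjusted p below 0.05 and 0 called by DESeq2 in each list.

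The programs that the study defined for HSCs were compared at the same step. They were chosen on other libraries of this series and, for the initiatory program, on cultured cells, so that their counts are not independent evidence of a direction. Over all genes tested, 5.08% rose and 2.73% fell, and 10.8% had libraries apart and higher and 10.3% apart and lower. Of 172 tested genes of the fibrogenic program, which was taken from chronic injury and its reversal, 12 rose and 31 fell (median -0.347). In this program 9 genes had libraries apart and higher and 52 apart and lower. Of 72 genes of the initiatory program, taken from early activation in culture and after a single injection, 5 rose and 16 fell (median -0.475), and 39 genes belong to both. The summed level of the fibrogenic genes was 25499-33164 CPM at 72 h and 22076-38376 CPM at 7 d, and that of the initiatory genes 5932-8348 CPM and 3578-5029 CPM, compared with 6822-8288 CPM and 1702-2418 CPM in healthy libraries. Without replicate 2 of 72 h, 19 fibrogenic and 9 initiatory genes were called lower. The fibrogenic genes called higher were 7 without replicate 1 of 72 h, and the initiatory genes called higher were 2 without replicate 1 of 72 h or replicate 3 of 7 d.

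To place the step in context, it was set beside the step from 24 h to 72 h after the last of the chronic injections, which shares no library with it. The intervals differ in length and in the time since injection, and in each chronic group replicates 1 and 2 held 6521748 to 7580709 counts and replicates 3 and 4 held 12234912 to 13045948. In the chronic step, 886 genes were higher (4.72%) and 684 lower (3.65%). Of the genes that rose in the acute step, 137 also rose in the chronic step, which is 14.4% of the former and 15.5% of the latter, and 31 fell. Of the genes that fell in the acute step, 117 also fell in the chronic step (22.9% and 17.1%) and 23 rose. The difference between the steps was itself tested and was called above for 590 genes (3.15%) and below for 337 (1.8%). Of the 952 genes higher in the acute step, 360 (37.8%) had a difference called above, and of the 512 lower, 117 (22.9%) had a difference called below. The difference contains the acute step and uses the same libraries, so these 2 shares follow in part from the choice of genes and are not independent evidence.

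Mitotic genes showed no call in the same direction in both steps. In the chronic step 16 of 49 rose and 0 fell (median 1.37), and the difference was called below for 31 and above for 0. For Cdk1 the acute step was -2.84 and the chronic step 0.20, a difference of -3.04 (edgeR adjusted p = 0.000179). Of 26 contractile genes, 22 fell in the chronic step (median -1.82), and the difference was called above for 2, Actn1 and Acta2, and below for 0. Acta2 went from 1545 ± 1062 to 11.2 ± 14.0 CPM in the chronic step (log2 -7.09), and its steps differed by 5.47 (edgeR adjusted p = 0.00232). Of the 10 pan-macrophage markers, 0 rose and 1 fell in the chronic step, and the difference was called above for 9. Lyz2 was at 1206 ± 905 and 1028 ± 359.8 CPM at 24 h and 72 h of the chronic groups, a step of -0.23. This step differed from the acute step by 4.84 (edgeR adjusted p = 0.000329). Its libraries measured 1490.4, 2336, 280.1 and 717 CPM at 24 h and 934, 1276, 559.8 and 1342 CPM at 72 h. By number, replicates 1 and 2, of lower depth, were lower at 72 h, and replicates 3 and 4 were higher.

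Matrix genes differed between the steps in a part of the members. The difference was called above for 3 of 16 fibrillar collagens, for 9 of 28 collagen-modifying enzymes and for 9 of 18 metalloproteinases and inhibitors, and below for 0 in each. Of 34 matrix glycoproteins and proteoglycans it was called above for 9 and below for 2. Lox fell by 3.0 in the chronic step, from 631 to 78.7 CPM, and differed from the acute step by 3.0 (edgeR adjusted p = 0.00382). Timp1 fell by 3.71 in the chronic step, from 149 to 11.3 CPM, and differed by 4.52 (edgeR adjusted p = 0.0208), and Vcan fell by 2.98 and differed by 3.38 (edgeR adjusted p = 0.000211). Col1a1 changed by -0.42 in the chronic step, from 5648 to 4228 CPM, and differed by 1.68 (edgeR adjusted p = 0.0389). Of the fibrogenic program, 139 genes fell in the chronic step and 0 rose, and since the program was chosen on chronic libraries for a fall during recovery, that count is not independent evidence.

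The 3 highest and 3 lowest called differences, taken from genes with mean log2 CPM at or above 3, were those of Gpnmb (5.89), Slit3 (5.79) and Mmp12 (5.75) and of Rpl32 (-6.27), Car3 (-4.20) and Sele (-4.18). Slit3, a ligand of Robo receptors, measured 10.9, 17.9, 5.45 and 5.81 CPM at 72 h and 65.7, 88.4, 25.5 and 9.96 CPM at 7 d of the acute groups, overlapping in replicate 4 of 7 d (log2 2.24, edgeR adjusted p = 0.00411, and 0.0645 without a call in a fit of the 8 libraries alone), and it fell by 3.55 in the chronic step (84.1 to 7.19 CPM). Car3, a carbonic anhydrase abundant in hepatocytes and fat, measured 47.6, 26.1, 295 and 125 CPM at 72 h and 370.5, 162, 219 and 381 CPM at 7 d, a change that was not called (log2 1.2, edgeR adjusted p = 0.274), and it rose by 5.40 in the chronic step (13.4 to 561 CPM). The mean of Car3 at 72 h was 123 CPM and 66.2 CPM without replicate 3. Sele changed by -0.39 in the chronic step, from 30.0 to 23.0 CPM. In the libraries of higher depth alone, the differences of Gpnmb (3.34, edgeR adjusted p = 0.162), Mmp12 (4.55, edgeR adjusted p = 0.052) and Car3 (-5.1, edgeR adjusted p = 0.052) were not called.

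**Figure D4:**
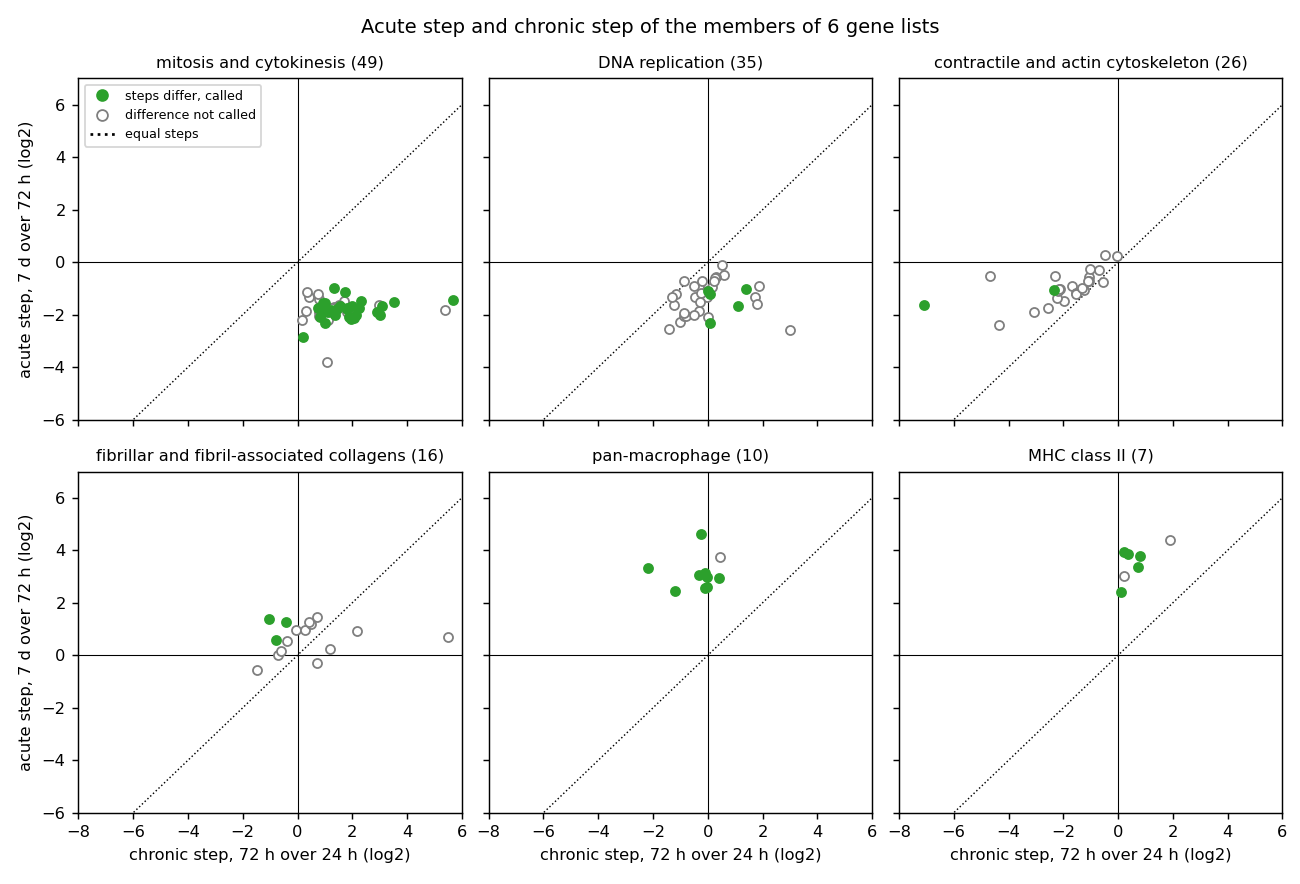
Acute step (7 d over 72 h, vertical axis) against chronic step (72 h over 24 h, horizontal axis), both as log2 fold change, for the tested members of 6 lists; green points have a called difference between the steps, open points do not, and the dotted line marks equal steps. Mitotic genes lie below the line at negative acute and positive chronic values, contractile genes lie near or above it in the lower left, and macrophage and MHC class II genes lie above it.

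Measured against healthy libraries, 1543 genes were higher (8.23%) and 812 lower (4.33%) at 72 h, and 1732 (9.23%) and 1058 (5.64%) at 7 d. These comparisons share libraries with the step described here, and their values are therefore given side by side. Sele stood 5.35 above healthy on the log2 scale at 72 h and 0.78 at 7 d, Cdk1 3.16 and 0.32, Egr4 4.01 and 0.20, Tagln 2.40 and 0.02, and Col8a1 2.91 and 0.52, each called at 72 h and not at 7 d. Acta2 stood at 6.76 and 5.13, Lox at 5.68 and 5.68, Vcan at 3.31 and 3.71, Timp1 at 5.29 and 6.10 and Casq2 at 7.20 and 3.79, called at both times. Col1a1 stood at 4.09 and 5.34, Col3a1 at 2.29 and 3.23, Col15a1 at 1.81 and 5.08, Mmp12 at 2.48 and 6.11 and Gpnmb at 4.29 and 9.56, also called at both. Spp1 (1.05 and 5.44), H2-Aa (-0.42 and 3.53), Clec7a (1.64 and 5.90), Ctss (1.14 and 4.86), Il1b (0.94 and 3.47), Mmp2 (-0.90 and 1.42) and Sesn1 (-0.01 and 1.34) were called at 7 d and not at 72 h. Fosb (-0.15 and -1.36) and Irf1 (-0.28 and -1.42) were called below healthy at 7 d and not at 72 h.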

How the data were processed

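RNA of sorted HSCs was sequenced by the authors on a NextSeq 500 (single-end), and reads were aligned with STAR to GRCm38.p6 and assembled with StringTie. The deposited table holds raw counts per gene, not normalized, for 27 libraries, and the counting step, strand setting and versions are not given in the sources used here. Of 53379 genes, 16198 had no count. The table was read by column name with 0 unmatched columns, and names came from GENCODE M21 (53274 of 53379 identifiers).

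Counts were fitted in edgeR 4.0.16 (R 4.3.3) with filterByExpr, TMM scaling, 1 mean per group over all 27 libraries (20 residual degrees of freedom) and the robust quasi-likelihood F test. A gene counted as called if its p, adjusted by the Benjamini-Hochberg method, was under 0.05 and its fold change exceeded 2. CPM use TMM-scaled library sizes, and values on the log2 CPM scale use a prior count of 2. SE is the log2 fold change divided by the square root of F, and fitted fold changes use the default small prior count of edgeR. Libraries were called apart when the ranges of both groups did not overlap. DESeq2 1.42.0, other scalings, filters and thresholds, a replicate block and leaving out each library were tried as alternatives. The procedure was tested on simulated data. Replicate numbers were shared between groups, but same-numbered libraries did not deviate together.

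Named genes were a set of 12 activation, identity and cycle genes, the 8 highest and 8 lowest called genes with libraries apart and mean log2 CPM at or above 3, up to 2 called members per list and direction, and the 3 highest and 3 lowest called differences of steps. Members of lists named beyond these, and those in the closing section, were chosen after their values were seen. The members and lists were chosen with earlier results of these data known. A result that needs an item withheld for evaluation is not reported here.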

Additional observations from a re-analysis of the deposited data

Results flagged for a closer look

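Of 174 sets of 4 libraries examined, 9 held a library whose gap to the nearest other library took up more of the whole range of the set than the critical value of Dixon allows, and chance flags about 1 in 20 such sets. At 72 h these were Acta2 in replicate 2 (621 CPM, high), Gpnmb, Lyz1, Lyz2 and Thbs4 in replicate 4 (56.2, 9.91, 335 and 0.852 CPM, all high), Adamts14 in replicate 3 (70.9 CPM, low) and Cyp26a1 in replicate 1 (0.354 CPM, high). At 7 d they were Col15a1 in replicate 4 (30.2 CPM, low) and Lamb3 in replicate 2 (8.61 CPM, high). Of these 9, 4 lay in replicate 4 of 72 h, but the number of flags was near the chance rate. Lyz1 and Lyz2 may share reads, so their flags are not independent. For Thbs4 and Cyp26a1 the other libraries of 72 h were all at 0, so any count there raises a flag.

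For 41 of 87 named genes the acute step (7 d minus 72 h) and the chronic step (72 h minus 24 h) differed in the edgeR test of the difference itself. Of all genes tested, the difference was called above for 3.15% and below for 1.8%. Many named genes were chosen by their acute step, by this difference or after their values were seen, so their share follows in part from the choice. The differences below are acute minus chronic on the log2 scale. Among genes of myeloid cells and lysosomes they were 5.89 for Gpnmb, 4.84 for Lyz2, 4.73 for Lyz1, 4.64 for Ccl6, 3.85 for Ctss, 3.75 for H2-Aa, 3.44 for Clec7a and 2.86 for Il1b. Among complement and apolipoprotein genes they were 2.64 for C3, 2.21 for C4b and 1.54 for Apoe.

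Among genes of the matrix and its turnover, the differences were 7.48 for Thbs4, 5.75 for Mmp12, 5.49 for Spp1, 5.23 for Col15a1, 4.52 for Timp1, 3.38 for Vcan, 3.0 for Lox, 2.43 for Col5a3, 2.28 for Pcolce2, 1.68 for Col1a1, 1.38 for Mmp2 and 1.03 for Bmp1. Secreted and extracellular modifiers gave 5.79 for Slit3, 3.8 for Sulf1, 3.18 for Fam20c and 1.86 for Cpxm1. Acta2 differed by 5.47 and the glucose transporter Slc2a3 by 1.9.

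Differences below 0 were -6.27 for Rpl32, whose values are uncertain, -4.2 for Car3, -4.18 for Sele, -3.81 for Casq2, -3.24 for Rnd1, -3.15 for Egr4, -3.04 for Cdk1, -2.39 for Tk1, -2.21 for Irf1, -2.16 for Adm, -1.65 for Icam1 and -1.0 for Tubb4b. The steps differ in length and in the number of injections, and these cannot be told apart.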

How the results depend on the processing

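The 952 genes higher at 7 d became 215 in a test against a 2-fold minimum and 683 to 931 when a library was left out. The 512 genes lower became 1096 without a fold minimum, 330 without a filter on low counts, 51 in a test against a 2-fold minimum and 347 to 483 when a library was left out. Differences of steps above 0 (590) became 149 in a test against a 2-fold minimum, 304 in the libraries of higher depth alone and 462 to 628 when a library was left out, and those below 0 (337) became 51, 189 and 253 to 414, and 512 at an adjusted p below 0.1. The choice of higher-depth libraries was added after seeing the data. With library size as the only scaling, 52.3% in place of 63.6% of the called differences of steps were higher. In the acute step 65.0% of calls were higher, 53.9% without a fold minimum and 80.8% in the 2-fold-minimum test. Thbs4 was not called by DESeq2 (adjusted p = 0.0738). The log2 fold change of Lox, 0.0, was -0.0 with library size alone and -0.21 to 0.31 when a library was left out. The cause was not tested.

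Same-numbered libraries of 72 h and 7 d had correlations of deviations of -0.0567 to 0.0413, and 0 of 4 libraries of 72 h correlated best with their own number, so the numbers were not taken to pair the libraries. With a replicate block, 947 genes were higher and 484 lower, and 626 and 325 differences of steps were called. Of the named genes, Cd74 alone lost its call with the block (edgeR adjusted p = 0.0511). Without a filter on low counts, Mki67, Cd74, Kif20a, Pparg, Thrsp, C1qa and C1qc lost theirs (edgeR adjusted p = 0.0576 to 0.0899). Of 1564 values of 87 named genes under alternatives, 1428 kept their direction and side of the threshold, 124 fell below the threshold, 7 passed it and 5 changed sign, all 5 of them Lox. Low counts limit the folds of genes with libraries at 0.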

Other observations

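The genes below were chosen after their values were seen. Nfkbia, which encodes the inhibitor IκBα, measured 928, 1039, 702 and 736 CPM at 72 h and 189.8, 221, 384 and 509 CPM at 7 d, apart in all libraries, and fell by 1.38 on the log2 scale (SE 0.31, edgeR adjusted p = 0.00425). Nfkbiz fell by 1.24, without a call in a fit of the 8 libraries alone (edgeR adjusted p = 0.0588), and the adhesion molecule Icam1 by 1.21, the latter by 0.94 without replicate 2 of 72 h, while Vcam1 was not called (742 to 585 CPM, log2 -0.34). The vasodilator peptide gene Adm measured 326, 413, 389 and 346 CPM at 72 h and 54.7, 63.5, 74.3 and 121 CPM at 7 d (log2 -2.23, edgeR adjusted p = 2.13e-05), without overlap. The EGF receptor ligand Ereg fell from 205 to 49.9 CPM (log2 -2.03). Tnfrsf12a, the TWEAK receptor, fell from 41.1 to 10.6 CPM (log2 -1.96), and its mean at 72 h was 24.6 CPM without replicate 2, when the call was lost (edgeR adjusted p = 0.0938), as it was in a fit of the 8 libraries alone (0.0699). Of the 5 tubulin genes looked at, 4 fell, Tubb6 from 698 to 211 CPM (log2 -1.73), Tubb4b from 438 to 135 CPM (log2 -1.69), Tuba1b by 1.45 and Tuba1a by 1.22, and Tuba1c, whose libraries were also apart (328 to 139 CPM, log2 -1.24), was not called in the fit of all libraries (edgeR adjusted p = 0.379) but was in a fit of the 8 libraries alone (0.00271). Its values are uncertain, since its mean was 0.804 CPM in healthy libraries and 489 CPM at 24 h.

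Apoe, the lipid carrier, measured 3189.6, 3614, 2276 and 2289.6 CPM at 72 h and 10269, 9411, 16417 and 15320 CPM at 7 d, apart in all libraries (log2 2.18, SE 0.33, edgeR adjusted p = 0.000141). C3 rose from 114 to 589 CPM (log2 2.37) and C4b from 47.8 to 276 CPM (log2 2.53). The C1q chains, which macrophages make, rose by 2.15 (C1qa), 2.51 (C1qb) and 2.15 (C1qc), and C1qa and C1qc lost their calls without replicate 3 or 4 of either group, C1qc also without replicate 2 of 72 h, and C1qb without replicate 4 of 7 d, at edgeR adjusted p = 0.0522 to 0.106. In a fit of the 8 libraries alone C1qa was not called (edgeR adjusted p = 0.0526). The heparan sulfatase Sulf1 measured 3.28, 4.76, 5.53 and 6.27 CPM at 72 h and 75.7, 70.2, 37.5 and 31.6 CPM at 7 d (log2 3.43, edgeR adjusted p = 1.46e-05), far apart. Cpxm1 rose from 105 to 551 CPM (log2 2.40), the protease inhibitor Serpine2 from 34.2 to 161 CPM (log2 2.24) and the secretory kinase Fam20c from 37.2 to 169 CPM (log2 2.18). Robo2, a receptor of Slit ligands, fell by 1.27, a call lost without replicate 1 of 7 d (edgeR adjusted p = 0.0504).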
